A study of Mus musculus with 9 samples.

Results

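The growth hormone receptor and STAT5 pathway was examined in mouse liver through 9 genes, Ghr, Prlr, Jak2, Stat5a, Stat5b, Socs2, Cish, Bcl6 and Cux2. Its probes were found by matching the RefSeq accession of every non-control spot to a gene symbol, which gave 14 of the 55681 distinct probes on the array and 9 of the 20972 symbols named. Of the 14 probes, 13 passed the brightness filter and were well above background on all 9 arrays; the single Cux2 probe did not pass.

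Liver RNA of male C57B/6J mice aged 20 weeks was measured on 1-colour Agilent expression arrays, with 1 array a mouse and 3 mice in each of 3 groups. STAM mice received a low dose of streptozotocin, a toxin of the insulin-secreting beta cells, as newborns and a high-fat diet from weaning, and by this age the model carries fatty liver disease with liver tumours. STAM-NON mice received no treatment, STAM-INS mice received insulin glargine by repeated subcutaneous injection every day, and Normal mice were lean mice on ordinary chow without streptozotocin. STAM and Normal mice therefore differ in toxin, diet, diabetes and liver disease at once, and whether the pieces of STAM liver held tumour is not given in the sources used here.

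Growth hormone reaches the liver in pulses and binds its receptor, a partner of the kinase JAK2, which phosphorylates STAT5A and STAT5B. STAT5 then enters the nucleus and switches on target genes, among them Igf1 and the feedback inhibitors Socs2 and Cish, and because male and female rodents secrete the hormone in different rhythms, the pathway sets much of the sex difference of liver gene expression. The repressors BCL6, higher in male liver, and CUX2, higher in female liver, act within this programme.

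Values below are centred log2 signal, the log2 of a probe's processed signal minus the 75th percentile of its array. A gene was judged by its lead probe, the brightest of its probes, and a difference was called where limma's p-value, adjusted by Benjamini-Hochberg over 26277 probes, was under 0.05. All STAM arrays were on 1 slide and all Normal arrays on another, scanned in separate scans, so slide and group cannot be told apart in any comparison with Normal. The arrays had 46.2% to 65.0% of spots well above background, no saturated spot, and all 10 hepatocyte markers passed the filter.

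Ghr was the single member called between untreated STAM and Normal liver. In that comparison 1 of the 8 members tested was called, where 16.8% of the 13386 named genes were called. Ghr fell by 1.30 on the log2 scale (SE 0.24, adjusted p 0.0163), to 40.7% of its Normal level. Neither of the other comparisons had a call by limma: 0 of 8 members were called between STAM-INS and STAM-NON (background 0.0822%), and 0 of 8 between STAM-INS and Normal (background 13.6%). At an unadjusted p under 0.05, limma gave 3 members for STAM-NON against Normal, 2 for STAM-INS against STAM-NON and 2 for STAM-INS against Normal, where 36.2%, 9.32% and 32.1% of named genes passed.

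**Figure D1:**
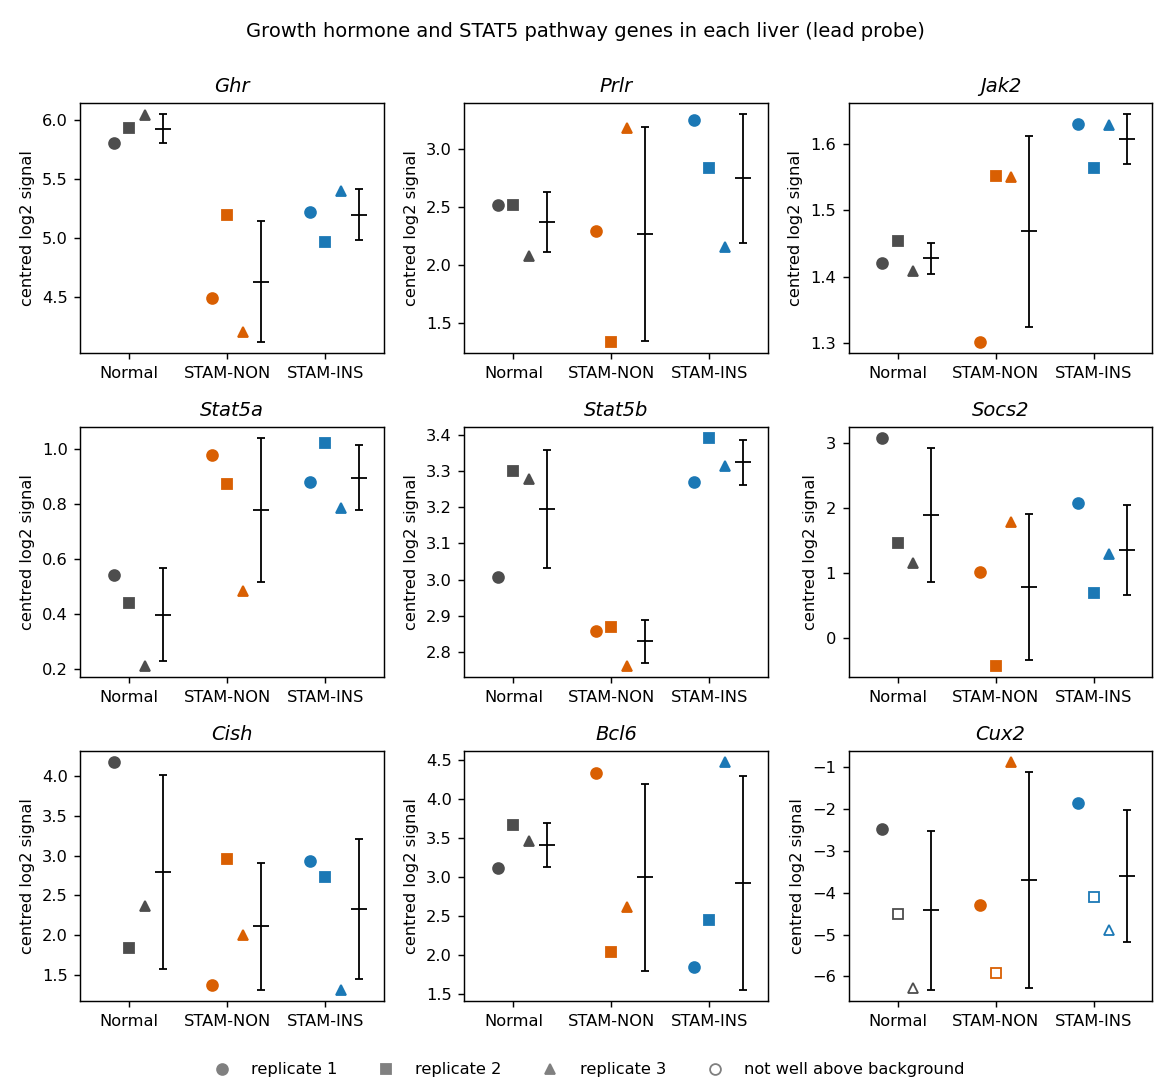
Centred log2 signal of the lead probe of each of the 9 genes (y axis, a separate scale for each gene) in every mouse of the Normal, STAM-NON and STAM-INS groups (x axis); the black mark and bar give the mean and SD of 3 mice, the marker shape gives the replicate number, and open symbols are not well above background. Ghr lies between 4.20 and 5.20 in STAM-NON and between 5.80 and 6.05 in Normal livers, while Socs2, Cish and Bcl6 spread over 2.61 to 3.50 log2 units with overlapping groups.

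Ghr encodes the growth hormone receptor, the entry point of the pathway. Its lead probe (A_55_P2059412) read 4.49, 5.20 and 4.20 in STAM-NON replicates 1 to 3, 5.22, 4.97 and 5.40 in STAM-INS, and 5.80, 5.93 and 6.05 in Normal. Every STAM liver, treated or not, was below every Normal liver, whereas STAM-NON and STAM-INS overlapped. As a share of the Normal mean, the STAM-NON livers held 36.9%, 60.3% and 30.3% and the STAM-INS livers 61.4%, 51.4% and 69.4%. The means were 4.63 ± 0.51, 5.20 ± 0.22 and 5.93 ± 0.12 (SD, 3 mice) in STAM-NON, STAM-INS and Normal, so the spread among mice was widest in untreated STAM liver. Insulin-treated liver stood 0.57 above untreated liver (SE 0.24, 95% confidence interval 0.011 to 1.12, adjusted p 0.565) and 0.73 below Normal (difference -0.73, SE 0.24, adjusted p 0.0786), and limma called neither difference. In liver tissue as a whole, fewer cells that express a gene and less RNA of it in each cell cannot be told apart.

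The second Ghr probe (A_51_P499854) read 4.01, 4.81 and 4.37 in STAM-NON, 4.66, 4.47 and 4.89 in STAM-INS, and 5.28, 5.40 and 5.40 in Normal. It placed the groups in the same order as the lead probe. On this probe Ghr fell by 0.96 in STAM-NON against Normal (SE 0.20, adjusted p 0.0222), and its STAM-INS values were again all below Normal (difference -0.69, adjusted p 0.0576). The STAM-NON call on the second probe was lost without Normal replicate 1, 2 or 3 (limma adjusted p 0.0603, 0.0682 and 0.0702). It was lost as well without STAM-NON replicate 1 (0.0529) or 3 (0.0572), without the brightness filter (0.0985) and with the slide row as a fixed block (0.308). The probes differed most in STAM-NON replicate 3, at 30.3% of the Normal mean on the lead probe and 50.2% on the second. On the lead probe the call was lost without STAM-NON replicate 1 (adjusted p 0.0508), without Normal replicate 2 (adjusted p 0.0535) and without Normal replicate 3 (adjusted p 0.0581), with differences of -1.23, -1.29 and -1.24. It was also lost with the slide row as a fixed block (difference -1.34, adjusted p 0.251), a fit in which row 1 holds no Normal array. The direction on the lead probe stayed the same under all 24 alternatives, over which the adjusted p ranged from 0.00536 to 0.251. An unadjusted t-test among them was entered by its plain p. Several alternatives keep the group means and change only the filter or the spread, so the direction could not change there.

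Markers of cell types were read in the same comparison, where 7.87% of named genes were called higher and 8.93% lower. Relative to the Normal mean, the mean over the 10 hepatocyte markers ran from -0.48 to -0.13 in the STAM-NON livers, from -0.21 to -0.13 in the insulin-treated ones and from -0.028 to 0.018 in Normal on the log2 scale, and 2 of 10 (Cps1 and Asgr1, named after their values were seen) were called lower in STAM-NON. Alb, the serum albumin gene, differed from Normal by -0.34 (adjusted p 0.0825) and Ttr, which encodes transthyretin, by -0.62 (adjusted p 0.0849). Over 9 macrophage markers it ran from 0.997 to 2.14, from 1.02 to 1.69 and from -0.19 to 0.14, with 6 of 9 called higher in STAM-NON. Cholangiocyte markers were called higher in 3 of 6 and lymphocyte markers in 2 of 6. By calls, stellate cell and fibroblast markers (1 of 10) and endothelial markers (1 of 8) were near the background share. The mean over the 10 stellate cell and fibroblast markers still ran from 0.45 to 1.08 in STAM-NON, and from -0.32 to 0.27 in Normal. Of these markers 9 of 10 were higher in STAM-NON, with a median of 0.76, where that of all named genes was -0.11. Of the endothelial markers 5 of 8 were higher, with a median of 0.054. The part of these cell types in the Ghr difference was not tested.

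**Figure D2:**
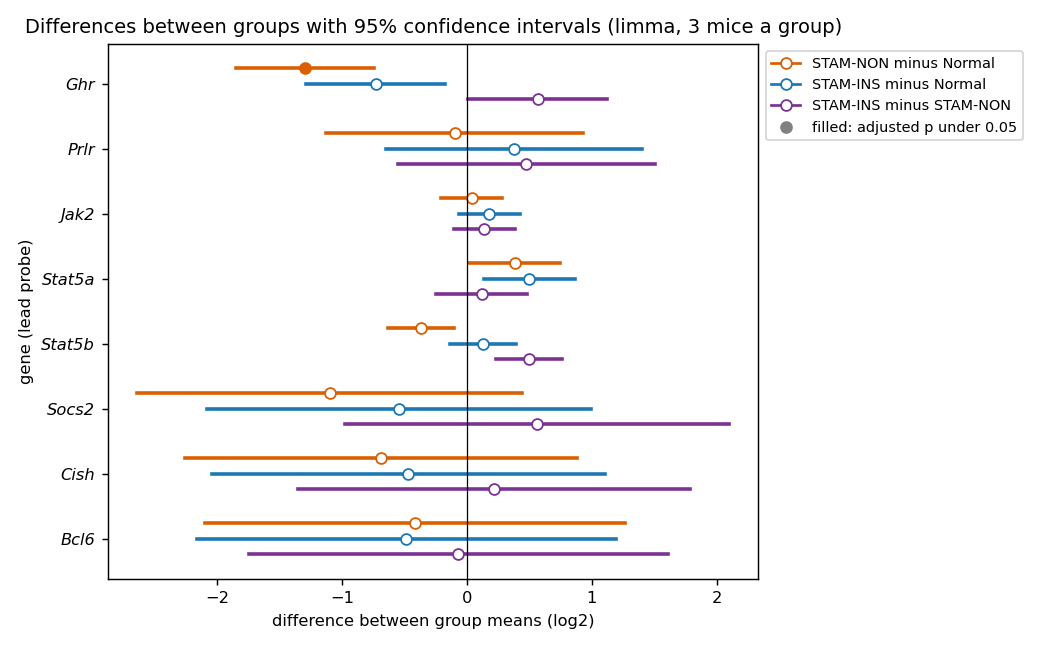
Difference between group means in log2 units (x axis) with its 95% confidence interval from limma for the lead probe of the 8 tested genes (y axis), in 3 comparisons; filled points have an adjusted p under 0.05. The filled point is Ghr in STAM-NON minus Normal, at -1.30, and the intervals of Socs2, Cish and Bcl6 are several times wider than those of Jak2 and Stat5b.

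Prlr, the prolactin receptor, signals through the same kinase and STAT5 proteins. It read 2.29, 1.33 and 3.18 in STAM-NON, 3.25, 2.83 and 2.15 in STAM-INS, and 2.52, 2.51 and 2.07 in Normal. The lowest liver and one of the highest were both STAM-NON, and the 3 groups overlapped. The difference was -0.10 for STAM-NON against Normal (95% confidence interval -1.13 to 0.93), 0.48 for STAM-INS against STAM-NON (-0.55 to 1.504) and 0.38 for STAM-INS against Normal (-0.65 to 1.40). None was called, with adjusted p-values of 0.888, 0.805 and 0.587. The second Prlr probe also placed STAM-NON replicate 2 lowest, at 43.6% of its Normal mean, and STAM-NON replicate 3 highest, at 177%.

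Jak2, the kinase bound to both receptors, varied least of the members, by 1.25-fold between the lowest and the highest of the 9 livers. Its values were 1.30, 1.55 and 1.55 in STAM-NON, 1.63, 1.56 and 1.63 in STAM-INS, and 1.42, 1.45 and 1.41 in Normal. All 3 STAM-INS livers were above all livers of the other groups. These gaps were small, 0.14 against STAM-NON (adjusted p 0.756) and 0.18 against Normal (95% confidence interval -0.065 to 0.42, adjusted p 0.276), and neither was called. STAM-NON and Normal differed by 0.040 (95% confidence interval -0.20 to 0.28, adjusted p 0.808).

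The STAT5 proteins are encoded by neighbouring genes, of which Stat5b is the main form in liver. Stat5b read 2.86, 2.87 and 2.76 in STAM-NON, 3.27, 3.39 and 3.31 in STAM-INS, and 3.01, 3.30 and 3.28 in Normal. The untreated livers were below all 6 others, while STAM-INS and Normal overlapped. STAM-INS exceeded STAM-NON by 0.49 (SE 0.11, 95% confidence interval 0.23 to 0.76), which is 1.41-fold, in 3 of 3 livers, with an unadjusted limma p of 0.0023 that did not pass adjustment over all probes (adjusted p 0.329). This comparison lies within 1 slide, but STAM-INS replicates 2 and 3 were in the other row of it, and with the row as a fixed block the difference was 0.44 (adjusted p 0.981). The STAM-NON difference from Normal was -0.37 (SE 0.11, adjusted p 0.0614) and that of STAM-INS from Normal was 0.13 (95% confidence interval -0.13 to 0.39, adjusted p 0.463).

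On the second Stat5b probe the values were 2.19, 2.15 and 2.06 in STAM-NON, 2.58, 2.65 and 2.52 in STAM-INS, and 2.15, 2.49 and 2.38 in Normal. STAM-INS was again above STAM-NON in all 3 livers, by 0.45 (SE 0.12, adjusted p 0.403), but Normal replicate 1 now lay among the STAM-NON values. The STAM-NON difference from Normal was -0.21 on this probe (adjusted p 0.237). Unlike on the lead probe, all 3 STAM-INS livers were above all Normal livers, by 0.24 in the means (adjusted p 0.195).

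Stat5a followed another order. It read 0.98, 0.87 and 0.48 in STAM-NON, 0.88, 1.02 and 0.79 in STAM-INS, and 0.54, 0.44 and 0.21 in Normal. All insulin-treated livers were above all Normal livers, and STAM-NON replicate 3 lay between Normal replicates 1 and 2. STAM-INS exceeded Normal by 0.50 (SE 0.16, adjusted p 0.0705) and STAM-NON exceeded Normal by 0.38 (SE 0.16, adjusted p 0.127), neither called. The STAM-INS difference passed the threshold without STAM-NON replicate 3 (adjusted p 0.0383), an array outside the comparison that enters the shared estimate of the spread. Groups did not overlap for 2 of 8 members (Ghr and Stat5b) between STAM-NON and Normal, for 2 of 8 (Jak2 and Stat5b) between STAM-INS and STAM-NON, and for 3 of 8 (Ghr, Jak2 and Stat5a) between STAM-INS and Normal, against 40.9%, 12.7% and 44.9% of all named genes.

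**Figure D3:**
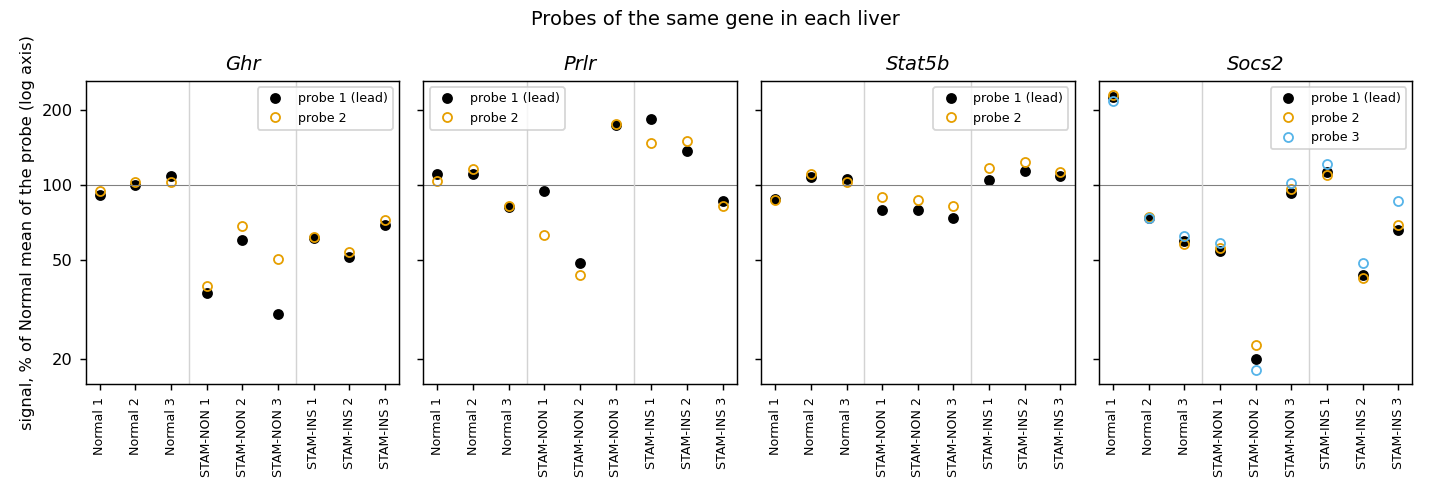
Signal of every probe of the 4 genes with more than 1 probe, as a percentage of that probe's Normal mean (y axis, log scale), in each of the 9 livers (x axis). Probes of a gene follow each other liver by liver, with Socs2 at 226%, 231% and 218% in Normal replicate 1 on its 3 probes, and they part most for Ghr in STAM-NON replicate 3.

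Socs2 and Cish are feedback inhibitors that STAT5 induces and that dampen receptor signalling. Between mice they varied by more than Ghr and Jak2 did in each group, while Prlr, with an SD of 0.92 in STAM-NON, exceeded the 0.80 of Cish there. Socs2 read 1.014, -0.42 and 1.79 in STAM-NON, 2.08, 0.69 and 1.29 in STAM-INS, and 3.07, 1.46 and 1.15 in Normal, an 11.3-fold range over the 9 livers. Normal replicate 1 was the highest liver and STAM-NON replicate 2 the lowest, and the other 7 livers were mixed. The lead Socs2 probe is printed in 10 spots on each array, and the SD over those spots was 0.075 to 0.13, against an SD between mice of 0.69 to 1.12 within the groups. Both other Socs2 probes also placed Normal replicate 1 highest and STAM-NON replicate 2 lowest.

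The Socs2 differences were -1.10 for STAM-NON against Normal (SE 0.67, 95% confidence interval -2.64 to 0.44, adjusted p 0.267), 0.56 for STAM-INS against STAM-NON (adjusted p 0.848) and -0.54 for STAM-INS against Normal (adjusted p 0.603). None was called, and the intervals include both a large fall and a rise. Without Normal replicate 1 the difference between STAM-INS and Normal was 0.048, and without STAM-NON replicate 2 that between STAM-INS and STAM-NON was -0.049.

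Cish read 1.37, 2.96 and 1.999 in STAM-NON, 2.93, 2.73 and 1.31 in STAM-INS, and 4.18, 1.84 and 2.36 in Normal. As with Socs2, Normal replicate 1 was the highest liver, and the range was 7.31-fold with overlapping groups. The differences were -0.69 for STAM-NON against Normal (SE 0.69, adjusted p 0.494), 0.22 for STAM-INS against STAM-NON (adjusted p 0.950) and -0.47 for STAM-INS against Normal (adjusted p 0.663). Without Normal replicate 1 the differences from Normal became 0.0064 for STAM-NON and 0.22 for STAM-INS.

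Bcl6 encodes a repressor that binds some of the same sites as STAT5 and is itself repressed by STAT5 in liver. Its 2 RefSeq promoters are shown because together they held more matches to the STAT5 consensus than the promoters of any other member. The letters TTCNNNGAA, which read the same on both strands, were searched in the 250 bases upstream of each listed start (RefSeq, GRCm38.p6), in 15 windows of 8 members, with no promoter listed for Socs2. Matches are in capitals, and both windows are on the minus strand, at chr16:23988853-23989102 and chr16:23981284-23981533.
Bcl6 promoter 1: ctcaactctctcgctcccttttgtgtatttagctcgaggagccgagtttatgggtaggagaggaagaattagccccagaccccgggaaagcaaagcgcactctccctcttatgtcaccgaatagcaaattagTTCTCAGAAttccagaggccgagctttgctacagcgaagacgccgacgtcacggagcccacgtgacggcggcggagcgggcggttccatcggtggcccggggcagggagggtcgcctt
Bcl6 promoter 2: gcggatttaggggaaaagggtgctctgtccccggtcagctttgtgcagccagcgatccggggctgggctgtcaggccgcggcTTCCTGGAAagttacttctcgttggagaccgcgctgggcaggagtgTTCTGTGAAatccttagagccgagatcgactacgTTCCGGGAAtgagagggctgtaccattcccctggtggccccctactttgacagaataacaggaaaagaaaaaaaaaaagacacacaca
Promoter 1 held 1 match, which begins 118 bases before the start, and promoter 2 held 3, which begin 168, 122 and 88 bases before it. Among all 32851 windows of this length, 7.02% held at least 1 match and 0.317% held 2 or more. The Bcl6 windows were picked for their matches, so their count beside these shares is no separate evidence. Over all members, 3 of 15 windows and 2 of 8 genes held a match, where 8.13% of all genes did. Among the members the only other match was 1 in a Prlr promoter, 110 bases before the start. A match is a run of letters, and binding was not measured.

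Bcl6 read 4.33, 2.04 and 2.61 in STAM-NON, 1.86, 2.46 and 4.47 in STAM-INS, and 3.11, 3.67 and 3.45 in Normal. The highest and the lowest liver were both insulin-treated, and the Normal livers lay between the extremes of either STAM group. The range was 6.11-fold, and the SD was 1.19 in STAM-NON and 1.37 in STAM-INS, against 0.28 in Normal; the difference in spread was not tested. Group differences were -0.42 (SE 0.74, adjusted p 0.708) for STAM-NON against Normal, -0.068 (adjusted p 0.989) for STAM-INS against STAM-NON and -0.48 (adjusted p 0.676) for STAM-INS against Normal, none called.

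Cux2, the female-biased repressor, was at the detection limit. Its probe was well above background on 2 of 3 STAM-NON arrays, 1 of 3 STAM-INS arrays and 1 of 3 Normal arrays, so it was not tested. The processed signal, on a linear scale, was 15.4, 3.94 and 157 in STAM-NON, 75.1, 14.9 and 8.43 in STAM-INS, and 44.7, 10.2 and 2.92 in Normal. The brightest liver was STAM-NON replicate 3, and each group had 1 array clearly brighter than its other arrays.

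Across the 9 livers, pairs were compared among Prlr, Socs2, Cish and Bcl6, the tested members whose groups overlapped in every comparison, which gave 6 pairs; this choice was made after the values were seen. In the STAM livers Bcl6 tended to be low where Cish was high. Normal replicate 1, the highest in Cish (4.18), was in the middle of the range for Bcl6 (3.11). Over all 9 mice Pearson's r was -0.63 (exact permutation p 0.0661, adjusted over the 6 pairs 0.202) and Spearman's rho was -0.78 (exact permutation p 0.0172, adjusted 0.103), so the pooled relation did not pass. Without the 2 mice farthest from the median of Cish, r was -0.90. With each group centred on its own mean, the r of Cish and Bcl6 over 9 mice was -0.77. Within the slide of the 6 STAM livers r was -0.95 (two-sided exact permutation p 0.00278, adjusted over the 6 pairs 0.0167). There rho was -0.94, with an adjusted exact permutation p of 0.1. These adjustments cover the 6 pairs alone, not the choice of genes, the sets of mice tried or the 2 coefficients. The STAM p-values are therefore descriptive, and the relation was not tested in other mice. The other slide holds 3 arrays, too few for a value. Without the 2 STAM mice farthest from the median of Cish, r was -0.83, over 4 mice. Over the 5 other settings of background correction and scaling the STAM r lay between -0.98 and -0.85. The exact permutation p in those settings ran from 0.00139 to 0.0347 before any adjustment over the 6 pairs. Adjusted values were not computed for them, so a pass in every setting is not shown. Leaving out 1 STAM mouse at a time, the STAM r lay between -0.996 and -0.93.

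**Figure D4:**
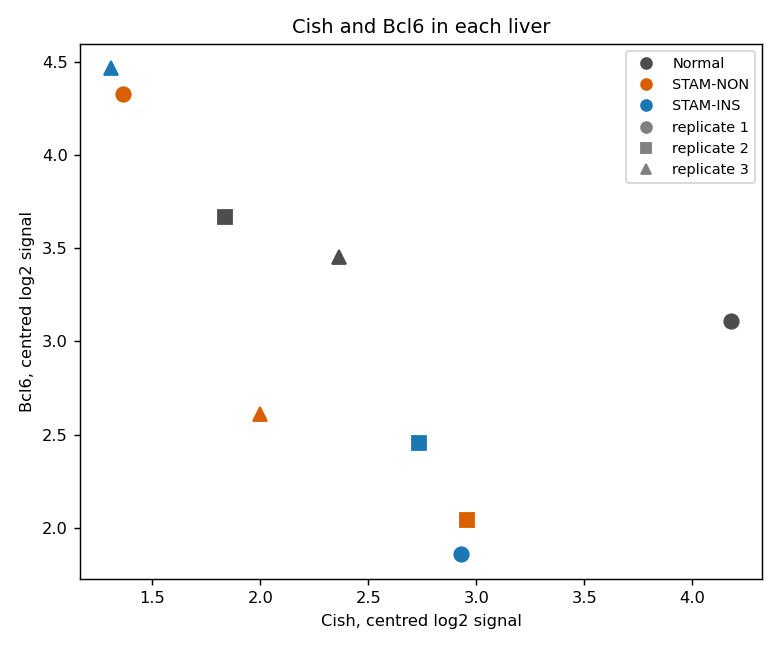
Centred log2 signal of Cish (x axis) and Bcl6 (y axis) in each of the 9 livers, with colour for the group and marker shape for the replicate number. The 6 STAM livers run from low Cish with high Bcl6 (1.31 and 4.47 in STAM-INS replicate 3) to high Cish with low Bcl6 (2.93 and 1.86 in STAM-INS replicate 1), and Normal replicate 1 lies apart at 4.18 and 3.11.

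Prlr and Socs2 had an r of 0.63 over 9 mice (exact permutation p 0.0672, adjusted 0.202; rho 0.62, exact permutation p 0.0857, adjusted 0.257) and 0.86 within the 6 STAM livers (exact permutation p 0.0292, adjusted 0.0875). With each group centred on its own mean, r over 9 mice was 0.74. Without the 2 mice farthest from the median of Prlr, a step that narrows the range of Prlr, r was 0.15. Within the STAM livers the same step took r from 0.86 to 0.36, over 4 mice. Socs2 and Cish, which respond to the same factor, had an r of 0.35 over 9 mice (exact permutation p 0.356, adjusted 0.713; rho 0.15) and of -0.26 within the STAM livers, and both were highest in Normal replicate 1. The other 3 pairs had an r between -0.25 and 0.096 over 9 mice; of these Prlr and Bcl6 moved most, from -0.25 to -0.79 without the 2 mice farthest from the median of Prlr.

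Of 3 genes that growth hormone induces in liver, 2 were called lower in STAM-NON against Normal (background 8.93% lower), Igf1, the circulating growth factor, and Igfals, which carries it in blood, and the same 2 were called lower in STAM-INS (background 7.49%). Igfals read 1.49, 2.27 and 2.13 in STAM-NON, 2.57, 2.01 and 2.44 in STAM-INS, and 3.68, 3.25 and 3.23 in Normal, with differences from Normal of -1.42 (adjusted p 0.0133) and -1.04 (adjusted p 0.0288). All STAM livers were below all Normal livers, as for Ghr. Igf1 was lower by less, with differences of -0.64 (adjusted p 0.0165) and -0.47 (adjusted p 0.0372), and 3 of its 4 probes were called in each. Onecut1, a liver transcription factor, had differences of -1.58 (adjusted p 0.0794) and -1.09 (adjusted p 0.203). The median of the 3 differences between STAM-INS and STAM-NON was 0.38.

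Of 18 partners of JAK-STAT signalling 16 were tested, and 1 was called higher in each comparison with Normal, a share near the background of 7.87% for STAM-NON and 6.15% for STAM-INS. This was Socs3, the feedback inhibitor induced mainly by STAT3. It read 2.05, 2.73 and 2.04 in STAM-NON, 2.77, 2.64 and 2.95 in STAM-INS, and 1.72, 0.86 and 0.90 in Normal. Every STAM liver was above every Normal liver, with differences of 1.11 (adjusted p 0.0317) and 1.62 (adjusted p 0.00993), while Socs2 and Cish had no call. The median difference of the 16 was 0.056 in STAM-NON against Normal, where that of all named genes was -0.11. The phosphatases Ptpn1 (0.56, adjusted p 0.0504) and Ptpn6 (0.49, adjusted p 0.0551), which act on phosphorylated kinases and receptors, were chosen for mention after their values were seen.

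Male-biased liver genes, which depend on pulsed hormone and STAT5B, were called lower in 5 of 19 tested in STAM-NON against Normal, and none was called higher (backgrounds 8.93% lower and 7.87% higher). The median difference was -1.81, and 13 of 19 lay wholly below Normal (background 26.0%). Among the called genes Keg1 fell by 2.47, Ugt2b1 by 2.27 and Cyp7b1, an oxysterol hydroxylase, by 2.01. The steroid enzyme Hsd3b5 was also called; it read 0.43 and -0.054 in STAM-NON replicates 2 and 3, was not well above background in replicate 1, and read 6.07 to 6.24 in Normal. In STAM-INS against Normal 2 of 19 were called lower (Cyp2d9 and Gna14), 1 was called higher (Moxd1, not well above background in Normal and at least 11.8-fold higher in STAM-INS), and the median was -1.04 (backgrounds 7.49% lower and 6.15% higher). Of these 19 genes in STAM-INS, 13 lay wholly below Normal (background 27.3%) and 2 wholly above (background 17.6%). Between the STAM groups the median was 0.47.

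Female-biased genes were called both ways, while 15 of 20 tested were higher in STAM-NON than in Normal and 12 in STAM-INS. In STAM-NON 7 lay wholly above Normal (background 14.9%) and 2 wholly below (background 26.0%). In STAM-INS 9 lay wholly above (background 17.6%) and 4 wholly below (background 27.3%). In STAM-NON against Normal 3 of 20 tested were called higher (background 7.87%), the magnesium transporter family member Nipal1 (3.03), the peroxisomal transporter Abcd2 (1.83) and the fatty acid receptor Cd36 (1.38), and 2 were called lower (background 8.93%), Cyp3a16 (-2.49) and Lifr (-2.26), the receptor for leukaemia inhibitory factor. The median of the 20 was 0.78. In these male Normal livers Cyp3a16 averaged 6.77 and Cyp2a4, of the same list, 8.87, while Cyp3a44 was not well above background. Whether the Cyp3a16 probe reads RNA of that gene alone was not tested. In STAM-INS against Normal 2 were called higher and 2 lower (backgrounds 6.15% and 7.49%), with a median of 0.65, and the median between the STAM groups was -0.35. Of 12 circadian clock and clock output genes tested, a group that also varies with the hour of sampling, 5 (1 up, 4 down) were called between the STAM groups (background 0.0822%), and 10 (3 up, 7 down) in STAM-INS against Normal (background 13.6%); the hour of sampling is not given in the sources used here, and its part in the values of Socs2, Cish and Bcl6 was not tested.

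**Figure D5:**
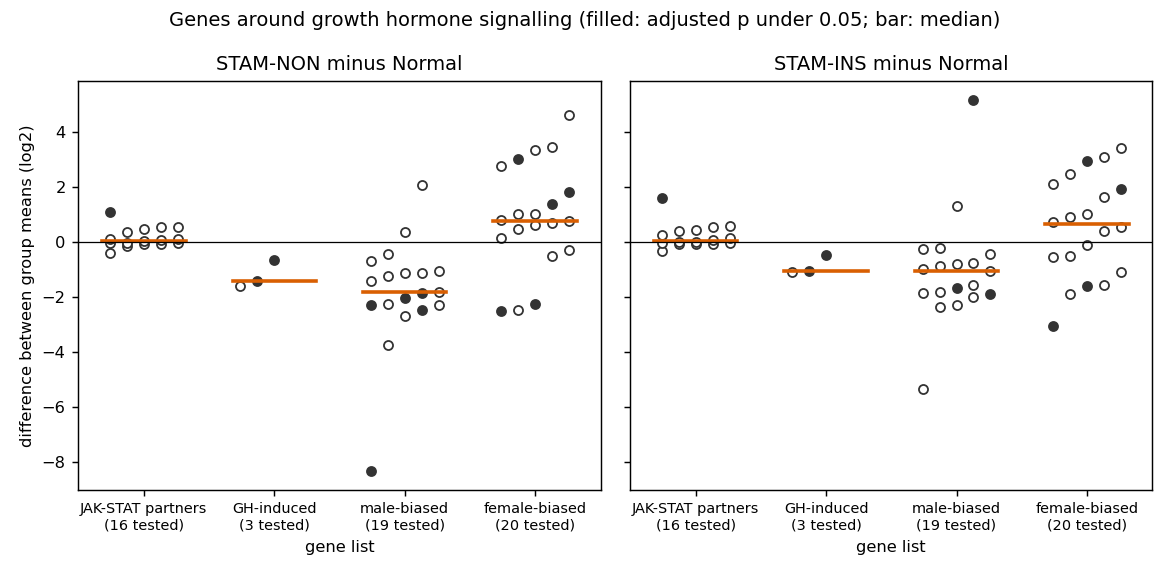
Difference from Normal in log2 units (y axis) of each tested gene of 4 lists (x axis), for STAM-NON on the left and STAM-INS on the right; points are genes, filled where the adjusted p is under 0.05, and the bar is the list's median. The male-biased genes have medians of -1.81 and -1.04, the lowest point on the left (Hsd3b5) includes 1 array not well above background, and the filled point among the JAK-STAT partners is Socs3 at 1.11 and 1.62.

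The genes whose pattern over the 9 livers was most like that of Ghr were Cyp2f2, a cytochrome P450 of the liver, Otc, the urea cycle enzyme ornithine transcarbamylase, and Fn3k, a kinase that repairs glycated proteins. Their root mean square distances from Ghr, each gene centred on its own mean, were 0.12, 0.17 and 0.17 log2 units, where the median over 13386 genes was 0.58. Cyp2f2 read 7.97, 8.55 and 7.74 in STAM-NON, 8.41, 8.33 and 8.58 in STAM-INS, and 9.21, 9.18 and 9.34 in Normal. As with Ghr, STAM-NON replicate 3 was lowest and all Normal livers were above all STAM livers. The differences of Cyp2f2 from Normal were -1.16 (limma adjusted p 0.0133) in STAM-NON and -0.80 (limma adjusted p 0.0336) in STAM-INS. Cyp2f2 was picked for its likeness to Ghr, so this order and these differences follow from the choice and are no separate evidence.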

How the data were processed

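Liver RNA of 9 mice, labelled with Cy3, was hybridised to 1-colour arrays, 1 array a mouse. The deposited files hold scanner output of Agilent Feature Extraction 11.5.1.1, per the file headers, as background-subtracted linear intensity for every spot, with no normalisation between arrays. The kit for RNA extraction differs between the labels and the study's methods, and the methods name no normalisation for the arrays.

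Outlier-flagged spots (161 to 217 an array) were left out, spots of a probe were averaged, and log2 of the processed signal was centred on each array's 75th percentile. Accessions were matched to a RefSeq table of GRCm38.p6, which named 27656 of 55681 probes; the array was designed on mm9, so its probe coordinates are not given. Testing required a well-above-background flag on 0.5 or more of a probe's spots on all 3 arrays of a group, which left 26277. The model was limma 3.58.1 under R 4.3.3 (lmFit, eBayes, two-sided tests, 9 arrays, 6 residual degrees of freedom) with Benjamini-Hochberg adjustment and a threshold of 0.05. Scripts were tested on simulated data. The number of arrays limits the precision. No mouse was left out.

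The members and lists were chosen with earlier results of these data known. Genes named by rule are all members, Igf1 and Igfals, up to 4 called genes a list by size, the first 2 hepatocyte markers and the 3 genes nearest to a called member in pattern. Onecut1 was named besides, as the other gene of the list that growth hormone induces. Cps1, Asgr1, Ptpn1 and Ptpn6 were added after their values were seen. Same-numbered mice did not deviate together (correlations of -0.29 to 0.15), so numbers were not treated as pairs. Alternatives were background correction, 4 other scalings, filters, blocks, other models and leaving out each mouse.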

Additional observations from a re-analysis of the deposited data

How the results depend on the processing

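Ghr was called in STAM-NON against Normal under 18 of 24 alternatives, with differences from -1.58 to -0.99. The 18 include the methods' t-test without adjustment, judged by its plain p. The count of members called in that comparison, 1 in the report, was 2 with normexp (Ghr and Stat5b), 2 with the percentile over detected probes (Ghr and Stat5a), 2 with the slide row as a random block and 2 with limma's trend and robust options (Ghr and Stat5b in both), 0 without a filter on dim probes, 0 with the row as a fixed block, and 0 to 1 when 1 mouse was left out. For STAM-INS against Normal, 0 in the report, it was 1 with normexp (Ghr), 1 with the percentile over detected probes (Stat5a), 2 with arrays of the 2 groups alone (Ghr and Stat5a), and 0 to 1 when 1 mouse was left out (Ghr without STAM-NON replicate 2, Stat5a without STAM-NON replicate 3). The methods' t-test gave 2, 1 and 3 unadjusted for STAM-NON against Normal, STAM-INS against STAM-NON and STAM-INS against Normal, and 0, 0 and 1 (Jak2) after Benjamini-Hochberg. No cause of these changes was tested.

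Of 584 values recomputed for single members, 27 changed sign. The filters, the replicate block, limma's trend and robust options, the 2 groups alone and the t-test keep the group means. So does leaving out a mouse of the group outside a comparison. In these settings no sign could change. Jak2 in STAM-NON against Normal became -0.027 with normexp and -0.11 with median centring. Prlr in that comparison became 0.044 with quantile normalisation, 0.075 with the detected percentile and 0.21 with centring on the E1A spike-ins. With E1A centring the differences between STAM-INS and STAM-NON became -0.011 for Jak2 and -0.031 for Stat5a, and with median centring Stat5b in STAM-INS against Normal became -0.043. With the row as a fixed block Bcl6 became 1.19 in STAM-NON and 0.050 in STAM-INS against Normal, and with the row as a random block 0.071 between the STAM groups. When 1 mouse was left out, STAM-NON against Normal ranged from -1.17 to 0.0064 for Cish, -1.08 to 0.058 for Bcl6, -0.0016 to 0.12 for Jak2 and -0.55 to 0.37 for Prlr. STAM-INS against STAM-NON then ranged from -0.049 to 1.06 for Socs2, -0.15 to 0.72 for Cish, -0.84 to 0.60 for Bcl6 and -0.030 to 0.22 for Stat5a, and STAM-INS against Normal from -0.91 to 0.048 for Socs2, -0.95 to 0.22 for Cish and -1.25 to 0.050 for Bcl6.

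Replicate numbers carry no stated pairing. With the replicate number as a block, probes called fell from 4220 to 2016, from 24 to 6 and from 3650 to 1872 in STAM-NON against Normal, STAM-INS against STAM-NON and STAM-INS against Normal, and Ghr kept its call in the first (difference -1.30, adjusted p 0.0424), with 1, 0 and 0 members called.

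Scaling shifts all probes together. The median difference between STAM-NON and Normal was -0.13 over tested probes, 0.18 with E1A centring and -0.29 with median centring, and probes called higher and lower were 1655 and 2565 in the report, 2737 and 458 with E1A centring and 2150 and 981 with the detected percentile. Ghr was lower in STAM-NON under each scaling. Within slide row 1, added after the data were seen, 1 STAM-INS array faced 3 STAM-NON arrays and no member was called; the lone array is assumed to vary like the other group. Signal over background limited Cux2 alone among the members.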
